A study of Oryzias latipes with 6 samples.

Results

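The 200 transcripts whose levels differed most between heart libraries of wild-type medaka were described, together with whether the same differences came back in the other 5 genotypes of the series. Levels are in CPM, the estimated reads of a transcript per 1000000 estimated reads of its library. Members were chosen by a rule on the wild-type values: of 37495 transcripts, 7941 averaged 10 CPM or more over the 6 wild-type libraries, and the members are the 200 of these with the largest SD of log2(CPM + 1) over those libraries. The SD in wild-type hearts is therefore what chose the members and is given only as a description.

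The groups were hearts at 5 days post-fertilization (dpf) of AXER-/- medaka (KO), AXER-/-, XBP1(S/+) medaka [KO + XBP1(S)], AXER-/-, ATF6(N/+) medaka [KO + ATF6α(N)], AXER+/+, XBP1(S/+) medaka [WT + XBP1(S)], AXER+/+, ATF6(N/+) medaka [WT + ATF6α(N)] and AXER+/+ medaka (WT), with 6 libraries each. The AXER-/- fish carry a frameshift deletion made with TALENs, XBP1(S/+) fish carry 1 allele that lacks the regulated intron and so makes the active factor throughout the body and from fertilization, and ATF6(N/+) fish carry 1 allele that makes the active amino-terminal part of ATF6α in the same unrestricted way. The series registers 1 sample per genotype, whose table has 6 columns of counts, and each column is taken here as a library. Whether each library was made from a heart of its own is not stated, so the spread within a genotype, and every p value, may be in part technical.

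AXER is a carrier that brings ATP into the endoplasmic reticulum, where chaperones use it to fold proteins. XBP1(S) and ATF6α(N) are active transcription factors of the unfolded protein response, which raises folding capacity when misfolded proteins accumulate. An embryonic fish heart holds muscle, a lining endocardium and blood, and fish erythrocytes keep their nucleus and their RNA, so that whole-heart RNA mixes heart and blood. The identifiers could not be paired with gene names (0 of 37495 matched), so members are named by transcript identifier, no role can be given to any of them, and neither the knocked-out gene nor markers of heart, blood or other tissues were checked here.

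Libraries held between 1850805 and 19619140 estimated reads, with medians between 2477696 in [KO + XBP1(S)] and 5757234 in [KO + ATF6α(N)], and 4013868 in WT. The 3 shallowest WT libraries, replicates 1, 4 and 6, held 2823115, 2524357 and 2878833 reads. No 2 libraries of a genotype were alike within sampling noise (smallest chi-square per degree of freedom, 6.66).

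In WT hearts the SD of the members was between 0.84 and 2.75 on the log2 scale, with a median of 1.00, against a median of 0.35 over all 7941 transcripts. The limit fell in a dense part of the ranking. ENSORLT00000036070.1 and ENSORLT00000017516.2, the last members inside the limit, had SDs of 0.836 and 0.835, and ENSORLT00000036402.1 and ENSORLT00000035849.1, the next in rank and so outside, had 0.834 and 0.832. Members were expressed at lower levels, with a median of the mean of 14.5 CPM against 24.4 CPM over all 7941, and 134 of the 200 (67.0%) lay under 20 CPM, against 40.1% of all. The SD of every member was at least 4.08 times that expected from counting alone (median, 5.92 times, against 2.72 times over all), a ratio that the choice by SD itself raises. Estimates that were not whole numbers, which arise where reads are shared between transcripts, occurred in 50.5% of members and 59.8% of all.

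**Figure D1:**
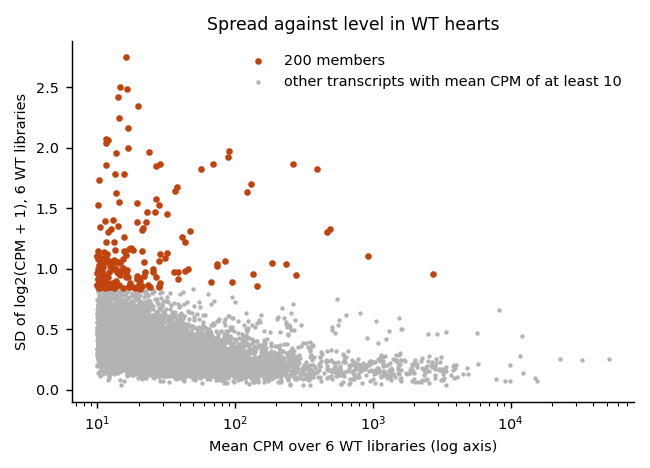
SD of log2(CPM + 1) over the 6 WT libraries (y axis) against the mean CPM in the same libraries (x axis, log scale), with 1 point per transcript; orange points are the 200 members and grey points the other transcripts that averaged 10 CPM or more. Members lie at or above an SD of 0.835, and 134 of them lie under 20 CPM.

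The transcripts with the largest SDs were close to absent in some WT hearts and present in others. ENSORLT00000013289.2, with the largest SD (2.75), had 0, 0.614 and 56.1 CPM as its lowest, median and highest WT value. The same transcript had 0, 2.02 and 46.9 CPM in KO, 0, 0 and 10.6 CPM in [KO + XBP1(S)] and 0, 9.08 and 73.3 CPM in [KO + ATF6α(N)]. In [WT + XBP1(S)] it had 0, 7.63 and 18.1 CPM, and in [WT + ATF6α(N)] 0, 1.12 and 3.02 CPM. It was read in at least 1 library of each of these genotypes and was at 0 in at least 1 other. By the same rule within each genotype, it was among the 200 most variable of 2 genotypes, WT included. ENSORLT00000010531.2, the next, had 0, 2.30 and 78.5 CPM in WT, where 3 of the 6 libraries were at 0.

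The variation recurred in part. In each of the other 5 genotypes the members were again more variable than other transcripts: the median SD of the 200 was 0.61 in KO, 0.69 in [KO + XBP1(S)], 0.60 in [KO + ATF6α(N)], 0.76 in [WT + XBP1(S)] and 0.63 in [WT + ATF6α(N)], against medians over all 7941 of 0.35, 0.41, 0.33, 0.45 and 0.33 in the same order. Between 126 and 148 of the 200 members (63.0% to 74.0%) lay in the upper 25% of SDs of the 7941, whereas 17 to 36 (8.50% to 18%) lay in the lower 50%. Low level itself comes with a larger SD, and its part in these medians was not tested.

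When each genotype's own 200 most variable transcripts were taken by the same rule, they included 41 members in KO, 30 in [KO + XBP1(S)], 36 in [KO + ATF6α(N)], 42 in [WT + XBP1(S)] and 57 in [WT + ATF6α(N)]. These are 20.5%, 15%, 18%, 21% and 28.5% of each list of 200, where the 200 make up 2.66%, 2.48%, 2.65%, 2.71% and 2.39% of the transcripts that met the minimum in that genotype. The overlap of WT with another genotype (30 to 57 shared, median 41) lay within the range found among the 10 pairs that leave WT out (19 to 80, median 36.5). Of the members, 87 were among the 200 of at least 1 other genotype, 35 among those of at least 3 others, and the rest among those of none. Of the members, 65.5% in [KO + ATF6α(N)] to 85.0% in [WT + ATF6α(N)] reached 10 CPM in the other genotypes. Single libraries carried much of the overlap. Without WT replicate 5 it was 20 in KO, 22 in [KO + ATF6α(N)], 25 in [WT + XBP1(S)] and 36 in [WT + ATF6α(N)], and without WT replicate 2 it was 13 in [KO + XBP1(S)]. It was also 19 in [KO + XBP1(S)] without its replicate 1, 22 in [KO + ATF6α(N)] without its replicate 6 and 33 in [WT + ATF6α(N)] without its replicate 6.

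**Figure D2:**
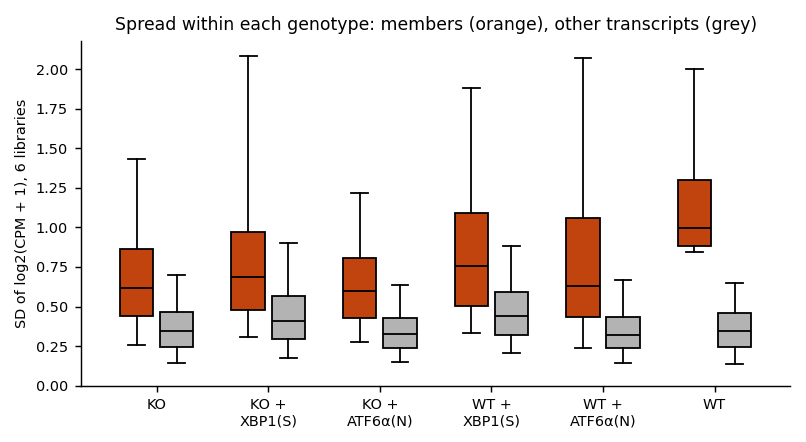
SD of log2(CPM + 1) over the 6 libraries of each genotype (y axis) for the 200 members (orange, left of each pair) and for the other transcripts that averaged 10 CPM or more in WT (grey). Boxes span the quartiles, lines are medians and whiskers reach the 5th and 95th percentiles; the median of the members stands above that of the others in all 6 genotypes, and in WT the SD chose them.

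Only 4 members were among the 200 most variable of all 6 genotypes, and they fell into 2 pairs. ENSORLT00000018614.2 had lowest, median and highest values of 22.1, 136 and 285 CPM in KO, 7.16, 37.4 and 66.9 CPM in [KO + ATF6α(N)], 28.0, 373 and 1471 CPM in [WT + ATF6α(N)] and 48.5, 105 and 1833 CPM in WT. ENSORLT00000046984.1 moved with it, with 17.4, 97.5 and 213 CPM in KO and 29.4, 66.2 and 1232 CPM in WT. In both, 1 WT library, replicate 2, held the highest value. The other pair was ENSORLT00000000280.2, with 18.4, 85.9 and 184 CPM in KO and 14.2, 22.3 and 101.1 CPM in WT, and ENSORLT00000000282.2, with 11.5, 65.0 and 157 CPM in KO and 14.3, 28.3 and 67.0 CPM in WT. In these, WT replicate 6 was the highest.

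To see how the members co-varied, they were grouped by the correlation of their log2(CPM + 1) over the 6 WT libraries (average linkage on 1 - Pearson r, divided at a height of 0.5). This gave 7 groups of at least 10 members, of 39, 30, 30, 24, 24, 18 and 17, numbered 1 to 7 by size, while 18 members lay in smaller groups. The level of a group is the mean over its members of log2(CPM + 1) minus the WT mean. The first principal axis carried 43.2% of the members' variance in WT, whose spread chose them, against 34.0% for all 7941 transcripts. The shares were 39.0% against 37.6% in KO, 56.8% against 28.6% in [KO + XBP1(S)] and 30.3% against 27.8% in [KO + ATF6α(N)]. When 1 library was left out, the members' share in [KO + XBP1(S)] ran between 40.6% and 64.1%, so that it rested in part on 1 library. In [WT + XBP1(S)] and [WT + ATF6α(N)] the members' share was the smaller, at 38.3% against 43.2% and 38.9% against 39.5%. Pairs of members taken without regard to groups had a median r of 0.05, below the 0.13 over all pairs of the 7941.

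Each WT group was set apart by 1 or a few libraries. Group 1 was high in replicate 5 (level 1.95) and low in replicate 2 (-1.17), and group 2 was high in replicate 2 alone (3.11), the other 5 lying between -0.98 and -0.27. Group 3 was low in replicate 6 (-1.70), group 4 in replicate 4 (-1.77), and groups 5 and 7 in replicate 1 (-1.64 and -1.59), while group 6 ran between -1.06 in replicate 5 and 1.06 in replicate 4. Replicates 1, 4 and 6, the low libraries of groups 3, 4, 5 and 7, were also the shallowest. In these libraries a member of group 3, 4, 5 or 7 was carried by a median of 8, 7, 7.5 or 10 reads, or 2.78, 2.77, 2.66 or 3.54 CPM, against a median of 13.8, 14.98, 13.5 or 16.8 CPM in the other 5 WT libraries. The part of depth in this was not tested beyond thinning all libraries to the same total, given in the closing section.

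Group 1 was the one group that co-varied again as a whole. Its median pairwise r was 0.73 in KO, 0.70 in [KO + ATF6α(N)], 0.84 in [WT + XBP1(S)] and 0.78 in [WT + ATF6α(N)], but 0.24 in [KO + XBP1(S)], against 0.86 in WT, where the r was set by the grouping. The median r over all pairs of the 7941 was 0.11, 0.14, 0.24, 0.16 and 0.06 in these 5 other genotypes. Without the library in which the group was highest, the r was 0.51 in KO (without replicate 5), 0.32 in [KO + ATF6α(N)] (without replicate 6), 0.85 in [WT + XBP1(S)] (without replicate 3) and 0.22 in [WT + ATF6α(N)] (without replicate 6), against 0.64 in WT (without replicate 5). In both genotypes with ATF6α(N) the co-variation thus rested largely on 1 library, whereas in [WT + XBP1(S)] no single library carried it, the lowest value without any 1 library being 0.77.

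The remaining groups did not come back as groups. Group 2 had a median r of 0.21 in KO, 0.02 in [KO + XBP1(S)], 0.00 in [KO + ATF6α(N)], 0.09 in [WT + XBP1(S)] and 0.16 in [WT + ATF6α(N)], against 0.88 in WT. In WT, too, the r of group 2 rested on 1 library, being 0.12 without replicate 2. The members of group 2 stayed variable in the other genotypes, with a median SD of 0.71, 1.32, 0.82, 1.65 and 1.77 in the same order. Groups 3 to 7, with members at median levels of 11.8 to 14.5 CPM, had median r values between -0.02 and 0.24 in the other genotypes, against 0.68 to 0.83 in WT. Of their members, 89 were among the 200 most variable of no other genotype. Those among the 200 of at least 1 other genotype were 5 of 30, 3 of 24, 5 of 24, 4 of 18 and 7 of 17. In groups 1 and 2 they were 32 of 39 and 20 of 30.

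Single members show this. In group 3, ENSORLT00000016850.2 had 37.9, 41.8 and 46.8 CPM as its lowest, median and highest value in KO, against 8.97, 43.1 and 51.4 CPM in WT. In group 4, ENSORLT00000031703.1 had 27.2, 34.3 and 43.6 CPM in KO, against 6.73, 30.8 and 39.6 CPM in WT. In both, the KO libraries lay close together, the medians of the 2 genotypes were near each other, and 1 WT library stood low. Not every genotype was as close: ENSORLT00000016850.2 had 17.1, 37.7 and 48.4 CPM in [WT + XBP1(S)], with an SD of 0.54 against 0.096 in KO.

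**Figure D3:**
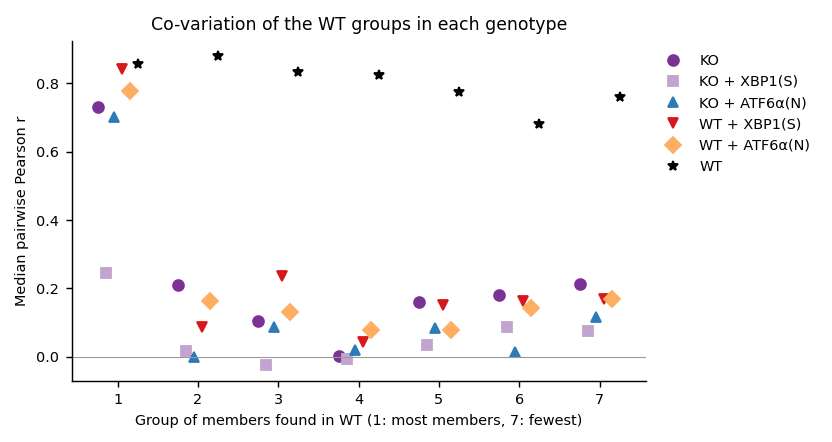
Median pairwise Pearson r of log2(CPM + 1) (y axis) within each of the 7 groups found in WT (x axis), with 1 symbol per genotype. Stars, the WT values that made the groups, lie between 0.68 and 0.88; only group 1 has values of 0.70 or more elsewhere, in 4 of the 5 other genotypes.

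The members were then grouped again by the 30 libraries outside WT alone, each genotype centred on its own mean, so that the WT libraries could be looked at separately. This grouping, chosen after the data had been seen, gave 4 sets of at least 8 members, named A to D, with 35, 15, 8 and 8 members, and left 134 members in none. Set A held 33 of the 39 members of group 1. Set B held 11 and set D held 8 of the 30 members of group 2, and set C held 7 of the 17 members of group 7. Group 2 thus came apart outside WT, and in WT it was held together by replicate 2 (median r 0.12 without it). The WT libraries did not form the sets, but their spread had chosen the members, so their values are a description. In them the median pairwise r was 0.87 for set A, 0.84 for set B, 0.83 for set C and 0.96 for set D, against 0.05 over all pairs of members. Without the WT library that was highest, it was 0.64 for set A, 0.12 for set B, 0.76 for set C and 0.81 for set D, so that in WT the co-variation of set B rested on replicate 2, as its rank correlation also showed (median Spearman 0.31). Of the 87 members that were among the 200 most variable elsewhere, 58 belonged to these sets and 29 to the 134 members in none. The sets and those lists of 200 came from the same libraries outside WT, so that this split is a description and not a separate result.

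**Figure D4:**
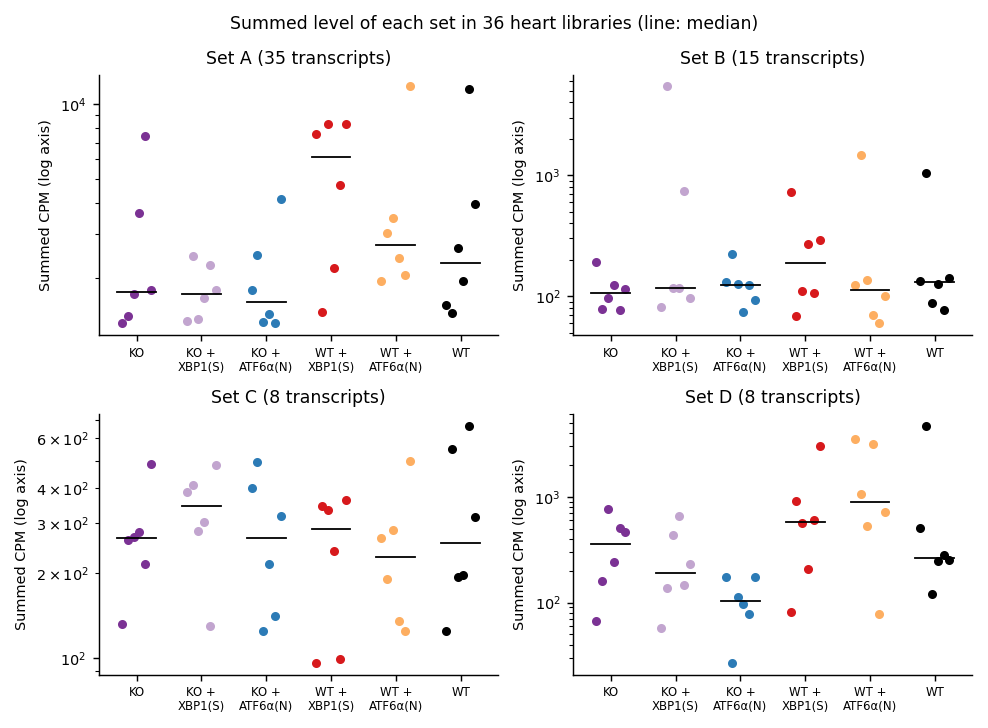
Summed CPM of the members of sets A to D (y axes, log scale) in each of the 36 libraries, by genotype (x axes); points are libraries and lines are medians of 6. Set A is graded, set B is above 200 CPM in 8 libraries of 5 genotypes, with the next library at 193 CPM, and set D is low in all 6 [KO + ATF6α(N)] libraries.

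Set A varied by degrees and took up to 1.18% of a library's reads. Its summed level had lowest, median and highest values of 1315, 1761 and 7444 CPM in KO, 1343, 1725 and 2447 CPM in [KO + XBP1(S)], and 1315, 1608 and 4152 CPM in [KO + ATF6α(N)]. In the fish with AXER the values were 1467, 6143 and 8285 CPM in [WT + XBP1(S)], 1949, 2726 and 11771 CPM in [WT + ATF6α(N)], and 1452, 2299 and 11467 CPM in WT. All genotypes overlapped at the low end, and 4 of the 6 [WT + XBP1(S)] libraries were above all libraries of [KO + XBP1(S)] and [KO + ATF6α(N)]. KO replicate 5, at 7444 CPM, stood above [WT + XBP1(S)] replicate 5, which is among these 4, at 4725 CPM. In such bulk RNA, fewer cells of a type and less RNA per cell cannot be told apart.

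Its most abundant member, ENSORLT00000015804.2, had lowest, median and highest values of 248, 446 and 1738 CPM in KO, 232, 412 and 608 CPM in [KO + XBP1(S)], 300.1, 1317 and 2136 CPM in [WT + XBP1(S)] and 371, 532 and 2588 CPM in WT. The next, ENSORLT00000001674.2, had 108, 215 and 1309 CPM in KO and 165, 202.1 and 1656 CPM in WT. Both were highest in the same library in KO (replicate 5) and in WT (replicate 5). Over the 30 libraries outside WT, the level of the set had a Pearson r of 0.30 with log10 depth, and over the 6 WT libraries of 0.38. Outside the 200 members, 3 of the 7941 transcripts followed the level of set A at an r above 0.8.

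Set B was near absent in most libraries and high in a few. Its level was above 1 in 8 of the 36 libraries and below 0 in the other 28, the highest of which was at -0.17, so that no library lay between. By summed CPM the gap was narrow, with KO replicate 1 at 193 CPM and [KO + ATF6α(N)] replicate 2, among the 8, at 222 CPM. The summed level of set B had lowest, median and highest values of 76.5, 106 and 193 CPM in KO, 81.8, 117 and 5428 CPM in [KO + XBP1(S)], and 74.0, 124 and 222 CPM in [KO + ATF6α(N)]. In fish with AXER it had 68.0, 189 and 722 CPM in [WT + XBP1(S)], 59.5, 111 and 1460 CPM in [WT + ATF6α(N)] and 77.1, 130 and 1050 CPM in WT. The high libraries were replicates 2 and 5 of [KO + XBP1(S)], replicate 2 of [KO + ATF6α(N)], replicates 1, 4 and 6 of [WT + XBP1(S)], replicate 2 of [WT + ATF6α(N)] and replicate 2 of WT, and KO had none. Replicate 2, a number that gives only the place of a column in its table, was thus among the high libraries of 4 genotypes, and whether these libraries had anything else in common was not tested.

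ENSORLT00000010531.2, also the member with the next to largest SD in WT, followed this pattern, with a highest value of 0.469 CPM in KO, 529 CPM in [KO + XBP1(S)], 10.8 CPM in [KO + ATF6α(N)], 24.4 CPM in [WT + XBP1(S)], 106.6 CPM in [WT + ATF6α(N)] and 78.5 CPM in WT. The most abundant member of the set in WT, ENSORLT00000028541.1, was never at 0. It had 12.2, 21.3 and 39.1 CPM in KO, 20.0, 27.8 and 580.2 CPM in [KO + XBP1(S)], and 14.2, 20.7 and 155 CPM in WT as lowest, median and highest values.

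Set D, with the 8 members of the highest correlation, included the pair ENSORLT00000018614.2 and ENSORLT00000046984.1 described above. Its summed level had lowest, median and highest values of 67.6, 355 and 769 CPM in KO, 57.5, 188 and 657 CPM in [KO + XBP1(S)], and 27.1, 105 and 175 CPM in [KO + ATF6α(N)]. In fish with AXER it had 81.0, 583 and 3025 CPM in [WT + XBP1(S)], 77.4, 890 and 3514 CPM in [WT + ATF6α(N)] and 120.2, 266 and 4688 CPM in WT. Values above the KO maximum, a limit that KO itself cannot pass, occurred in 6 libraries of the 3 genotypes with AXER. They did not occur in [KO + XBP1(S)] or [KO + ATF6α(N)]. The low ends of all 6 genotypes lay between 27.1 and 120.2 CPM. Of the 7941 transcripts, none outside the 200 members followed set D at an r above 0.8. Estimates that were not whole occurred in 87.5% of its members, so that reads may be shared among them or with other transcripts.

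The summed level of set C had lowest, median and highest values of 132, 266 and 486 CPM in KO, 130.2, 345 and 482 CPM in [KO + XBP1(S)], 124.9, 267 and 497 CPM in [KO + ATF6α(N)], and 125.04, 256 and 666 CPM in WT. ENSORLT00000033423.1, its most abundant member, had 26.5, 58.8 and 134 CPM in KO and 22.3, 69.9 and 170.1 CPM in WT. In [WT + XBP1(S)] the set had 96.2, 287 and 362 CPM, and in [WT + ATF6α(N)] 124.7, 229 and 500 CPM. The genotypes overlapped, while their highest values ran between 362 CPM in [WT + XBP1(S)] and 666 CPM in WT. The 4 sets varied largely apart from each other, with Pearson r values between their levels of -0.14 to 0.31 over the 30 libraries outside WT.

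Whether members differed in level between genotypes was tested per transcript with edgeR over all 36 libraries (called: adjusted p under 0.05 over 18076 transcripts and a fold change above 1.5). All 200 members passed the filter on low counts. The median standard error of a member's log2 fold change was 0.40 in KO against WT, beside 0.22 for all 7941 transcripts, so that only large differences could be called. In KO against WT, 3 members were higher and 0 lower, beside 0.437% of all tested transcripts called higher and 0.205% lower (0.844% higher among the 7941). An unadjusted p under 0.05 was found in 13 members (6.5%), beside 5.93% of all tested. The count of members called higher was 0 without WT replicate 1, 3 or 5 or KO replicate 3 or 5, and 1 without WT replicate 6 or KO replicate 2 or 6. DESeq2 called the same 3 members higher. It called 155 transcripts in all, a total over both directions that gives no share to set beside the 3. The WT libraries that chose the members enter this comparison.

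In [WT + XBP1(S)] against WT, which shares those libraries, 2 members were higher and 0 lower, beside 0.57% and 0.0277% of all tested (1.11% higher among the 7941), and 1 was lower without [WT + XBP1(S)] replicate 2. The count of higher members was 1 without WT replicate 1, 3, 4 or 5 or [WT + XBP1(S)] replicate 1, 3 or 5. DESeq2 called these 2 members and ENSORLT00000031703.1 higher. Its total of 144 transcripts called, over both directions, likewise gives no share to set beside them. In [WT + ATF6α(N)] against WT, edgeR called 0 members, beside 0.0111% of all tested, and DESeq2 called 0 as well, beside 0.0085%. There 7 members (3.5%) had an unadjusted p under 0.05 in edgeR, beside 3.30% of all tested. In the comparisons free of WT libraries, edgeR called 0 members higher and 1 lower in [KO + XBP1(S)] against KO, beside 0.138% and 0.0387% of all tested (0.063% lower among the 7941). An unadjusted p under 0.05 was found in 21 members (10.5%), beside 7.76% of all tested, and 11 of the 21 belonged to set B. DESeq2 called the same member lower and 7 higher, beside 0.399% of all tested called higher. All 7 belonged to set B, whose members vary together, so that they count as 1 observation. The summed level of set B in [KO + XBP1(S)] was 5428 CPM in replicate 2, against a median of 117 CPM. In [KO + ATF6α(N)] against KO, edgeR and DESeq2 each called 0 members, beside 0% of all tested. An unadjusted p under 0.05 in edgeR was found in 6 members (3%), beside 2.25% of all tested. In [KO + XBP1(S)] against [KO + ATF6α(N)], edgeR called 0 members, beside 0.166% of all tested, while DESeq2 called 3 higher, beside 0.275%. All 3 belonged to set B as well. In edgeR, 19 members (9.5%) had an unadjusted p under 0.05, beside 7.62% of all tested, and 11 of the 19 belonged to set B.

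The member called without any WT library was ENSORLT00000006569.2, the most abundant of the 200 in WT. It had lowest, median and highest values of 433, 837 and 1524 CPM in [KO + XBP1(S)], against 2889, 3693 and 6403 CPM in KO. The 2 groups did not overlap. Its log2 fold change was -2.37 ± 0.51 (SE, n = 6 each; edgeR adjusted p = 0.0382), and over the 12 refits that left out 1 library the adjusted p ran between 0.0416 and 0.130 and stayed under the threshold only without KO replicate 3 or [KO + XBP1(S)] replicate 1. The call was also lost without the filter on low counts (edgeR adjusted p = 0.0887). It was kept with these 2 genotypes fitted alone (edgeR adjusted p = 0.00775) and with column totals in place of TMM (edgeR adjusted p = 0.0198). DESeq2 called it too (DESeq2 adjusted p = 0.000439). The [KO + ATF6α(N)] libraries, with 401, 2432 and 3975 CPM, and the WT libraries, with 1062, 2070 and 6322 CPM, reached into both ranges.

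Of the members called against WT, ENSORLT00000046015.1 had the smallest adjusted p. It had 16.1, 26.2 and 34.1 CPM in [WT + XBP1(S)], against 2.43, 10.1 and 19.0 CPM in WT, with 1.46 ± 0.27 as log2 fold change (SE, n = 6 each; edgeR adjusted p = 0.000832), and it was called in all 12 refits that left out 1 library, but not with these 2 genotypes fitted alone (edgeR adjusted p = 0.0693). In KO it had 14.4, 20.5 and 29.2 CPM, with 1.10 ± 0.27 against WT (SE; edgeR adjusted p = 0.0309), a call lost in 8 of 12 refits. Both ranges overlapped with that of WT.

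ENSORLT00000041576.1 had 21.2, 24.5 and 30.5 CPM in KO, against 2.83, 11.3 and 20.5 CPM in WT. These groups did not overlap, and the log2 fold change was 1.20 ± 0.30 (SE, n = 6 each; edgeR adjusted p = 0.0497), a call lost in 10 of 12 refits. In [WT + XBP1(S)] it had 5.84, 26.0 and 34.6 CPM, with 1.25 ± 0.30 against WT (SE; edgeR adjusted p = 0.0353), lost in 7 of 12. ENSORLT00000046044.1 had 36.9, 50.6 and 97.5 CPM in KO, against 1.26, 7.55 and 44.7 CPM in WT, with 2.23 ± 0.53 (SE, n = 6 each; edgeR adjusted p = 0.0295), lost in 7 of 12. Its groups overlapped through WT replicate 2. With only the 2 genotypes compared, all calls of these 3 members against WT were lost (edgeR adjusted p between 0.0634 and 0.388). With column totals in place of TMM, all were lost but that of ENSORLT00000046015.1 in [WT + XBP1(S)]. DESeq2 kept all calls of these 3 members against WT (DESeq2 adjusted p between 3.28e-06 and 0.0145). None of the 4 members called by edgeR belonged to sets A to D.

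**Figure D5:**
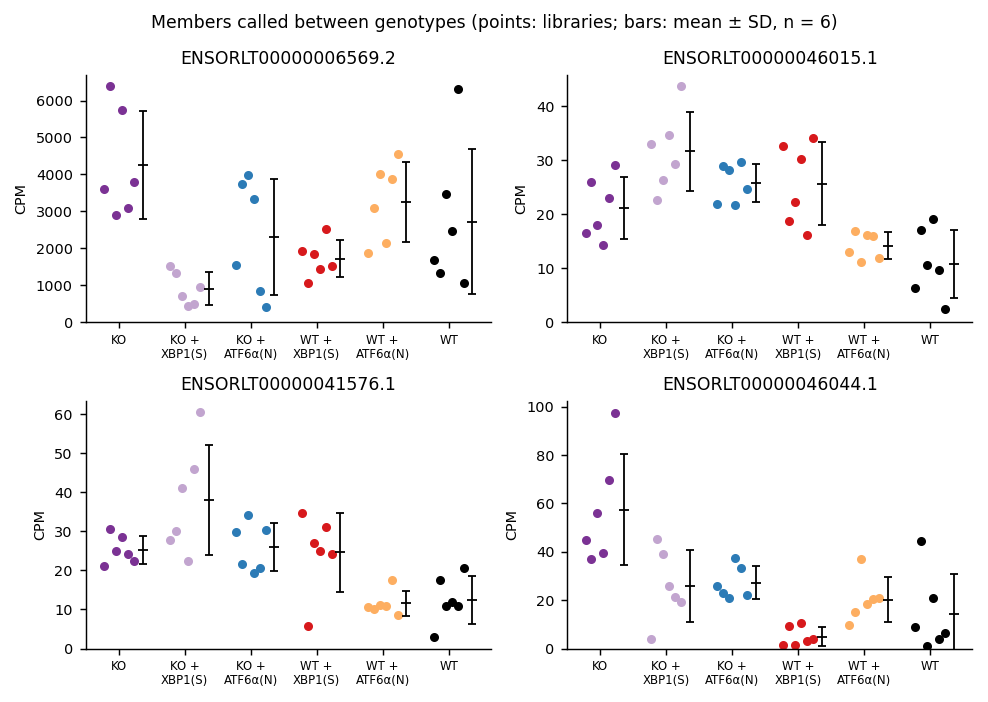
CPM (y axes) of the 4 members that edgeR called between genotypes, in each of the 36 libraries (points) with the mean and SD of 6 beside them, by genotype (x axes). ENSORLT00000006569.2 is between 433 and 1524 CPM in [KO + XBP1(S)], below all 6 KO libraries, and ENSORLT00000041576.1 is above all 6 WT libraries in KO.

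The recurring sets were not called between genotypes by edgeR. For set A, the 35 log2 fold changes in [KO + XBP1(S)] against KO were all below 0, with a median of -0.82, beside -0.04 over the 7941, but 0 were called, 2 had an unadjusted p under 0.05 and the smallest adjusted p was 0.551. The summed level of set A was 3640 and 7444 CPM in KO replicates 4 and 5, and between 1315 and 1798 CPM in the other KO libraries. By medians the 2 genotypes were close, with 1761 CPM in KO and 1725 CPM in [KO + XBP1(S)]. In [WT + XBP1(S)] against WT, 34 of the 35 were instead above 0, with a median of 0.56. There 0 were called and 1 had an unadjusted p under 0.05. Members of a set vary together, so that their shared sign, or a shared small p, counts as 1 observation. Over all tested transcripts, 7.76% had an unadjusted edgeR p under 0.05 in [KO + XBP1(S)] against KO and 7.17% in [WT + XBP1(S)] against WT. These shares were 2.25% in [KO + ATF6α(N)] against KO and 5.93% in KO against WT. For set B in [KO + XBP1(S)] against KO the median was 5.47, 11 of 15 had an unadjusted p under 0.05, 0 were called by edgeR (smallest adjusted p, 0.202) and 7 by DESeq2. Without [KO + XBP1(S)] replicate 2 the median was 2.07 and 1 of 15 had an unadjusted p under 0.05. With these 2 genotypes fitted alone, 5 of the 15 passed the filter on low counts, with a median of 0.77 and 1 at an unadjusted p under 0.05. For set D in [KO + ATF6α(N)] against KO, all 8 fold changes were below 0, with a median of -1.87, and 5 had an unadjusted p under 0.05, but 0 were called. In KO against WT all 8 were below 0 as well, with a median of -1.13. There 0 were called and 0 had an unadjusted p under 0.05. This sign followed WT replicate 2, where the summed level of set D was 4688 CPM. By medians the order was the reverse, with 266 CPM in WT and 355 CPM in KO.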

How the data were processed

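RNA of medaka hearts was sequenced in 36 libraries by Lasy-Seq, which has no molecular identifiers. First reads were trimmed by fastp 0.21.0 and mapped by BWA 0.7.17-r1188, and the authors deposited salmon's estimated counts per transcript (1.88% not whole, tolerance 1e-06). The methods and the submitters' processing notes name a mouse reference, whereas the rows are medaka transcripts. Replicate numbers give the order of columns and pair nothing. The members and lists were chosen with earlier results of these data known, and transcripts were named by SD rank, level within a group, or size of a called change. Medians, SDs and correlations were computed on log2(CPM + 1) in Python 3.11.15 with SciPy 1.17.1. Tests used edgeR 4.0.16 (R 4.3.3; rounded counts, filterByExpr, TMM, robust quasi-likelihood, 1 mean per genotype, Benjamini-Hochberg over 18076 transcripts), with DESeq2 1.42.0 as an alternative. The scripts were tested on simulated data.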

Additional observations from a re-analysis of the deposited data

Results flagged for a closer look

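Within each genotype, the level of every recurring set and the log2(CPM + 1) of single transcripts were looked over for a library that stood apart. These transcripts were the members that edgeR called and ENSORLT00000013289.2, the member with the largest SD in WT. A library passed where its gap to its nearest neighbour, as a share of the whole range of the 6, exceeded Dixon's 95% limit for 6 values. Gaps were taken on the log2 scale, whereas the transcript values below are in CPM. In all, 24 groups of set levels and 30 groups of transcript values were looked over, and 8 passed. Chance alone passes this limit in about 1 of 20 groups, a rate that does not hold for WT, where the members were chosen for a large spread. Set A passed in [WT + ATF6α(N)], where replicate 6 had a level of 2.17 and the next library 0.25. Set B passed in [WT + ATF6α(N)], where replicate 2 had 3.80 against -0.42 in the next, and in WT, where replicate 2 had 3.09 against -0.17. Set C passed in [KO + XBP1(S)], where replicate 5 had -1.08 and the next lowest 0.10. ENSORLT00000041576.1 passed in [WT + XBP1(S)], where replicate 2 had 5.84 CPM and the next lowest 24.1 CPM, in [WT + ATF6α(N)], where replicate 5 had 17.6 CPM and the next 11.2 CPM, and in WT, where replicate 1 had 2.83 CPM and the next lowest 10.8 CPM. ENSORLT00000046044.1 passed in [KO + XBP1(S)], where replicate 1 had 3.81 CPM and the next lowest 19.5 CPM. Causes were not tested.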

How the results depend on the processing

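Which transcripts make up the list depends on its settings. Of the 200 members, 195 remained with a pseudocount of 0.5 CPM, 197 with SDs beyond counting error, 162 with TMM, 161 with a pseudocount of 5 CPM and 143 after all libraries were thinned to 1850806 reads, but 61 with a minimum of 5 CPM, 66 with 20 CPM, 43 with none, 99 among transcripts with whole estimates and, chosen after seeing the data, 92 with WT replicates 2, 3 and 5 alone. The counts with 20 CPM and among whole estimates were fixed by the exclusion itself. Of the members, 134 lay under 20 CPM and 50.5% had an estimate that was not whole. Every member that these settings could keep was kept. Without any 1 WT library 136 to 181 remained. The overlap with KO was 27 among whole estimates, and that with [KO + ATF6α(N)] was 23 with a minimum of 5 CPM and 17 with none. Without 1 library the overlap ran over 20 to 46 in KO, 13 to 33 in [KO + XBP1(S)], 22 to 40 in [KO + ATF6α(N)], 25 to 47 in [WT + XBP1(S)] and 33 to 63 in [WT + ATF6α(N)], and the members' median SD over 0.65 to 0.69 in [KO + XBP1(S)], 0.54 to 0.61 in [KO + ATF6α(N)] and 0.68 to 0.78 in [WT + XBP1(S)]. The share of the first principal axis ran over 31.9% to 40.2% in [KO + ATF6α(N)] (30.3% with all), 38.2% to 45.1% in [WT + XBP1(S)] (38.3%) and 41.9% to 52.3% in [WT + ATF6α(N)] (38.9%). It ran over 40.6% to 64.1% in [KO + XBP1(S)] (56.8%), 35.5% to 47.8% in KO (39.0%) and 36.8% to 52.4% in WT (43.2%). With 1 library fewer there are fewer axes, which by itself tends to raise the share of the first. A rise over the value with all libraries therefore does not show dependence on a library. The fall to 40.6% in [KO + XBP1(S)] went against this tendency, so that the share there rested in part on 1 library.

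Without 1 library the median r of group 1 ran over 0.32 to 0.78 in [KO + ATF6α(N)] and 0.22 to 0.87 in [WT + ATF6α(N)], that of group 2 over 0.20 to 0.33 in KO, 0.0034 to 0.14 in [KO + XBP1(S)] and -0.043 to 0.19 in [KO + ATF6α(N)], and in WT that of set A over 0.64 to 0.91, set B over 0.12 to 0.91 and set D over 0.81 to 0.99. The rank correlation of group 2 in KO was 0.10.

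In KO against WT, members called higher numbered 1 without the filter on low counts and 0 with column totals in place of TMM or with these 2 genotypes alone (0 to 3 without 1 library). In [WT + XBP1(S)] against WT they numbered 1 with column totals and 0 with these genotypes alone (1 to 2 without 1 library, and 0 to 1 called lower). In [KO + XBP1(S)] against KO, 0 were lower without the filter (0 to 1 without 1 library) and DESeq2 called 7 higher, and it called 3 higher in [KO + XBP1(S)] against [KO + ATF6α(N)]. All members that DESeq2 called higher in these comparisons belonged to set B and vary together. Causes were not tested. No paired analysis was possible because the columns carry running numbers, none shared between genotypes. In the shallowest WT libraries, groups 3, 4, 5 and 7 had medians of 7 to 10 reads per member. The part of depth in this was not tested beyond the thinning given above.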

Other observations

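WT replicate 5 was the lowest of the 6 WT libraries for 37.7% of the 7941 transcripts and for 8.50% of the members, and the highest for 27.5% of the members and 9.34% of all. TMM factors moved the median level of its transcripts by 0.20 on the log2 scale, and those of all libraries by -0.28 to 0.54.

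Over the 30 libraries outside WT, 47 of the 7941 transcripts that are not members followed the mean level of group 3 at an r above 0.8, although its own 30 members had a median pairwise r of 0.07 there and none of them exceeded 0.8.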
